A study of Mus musculus with 4 samples.

Results

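The 318 regions described here are stretches of mouse chromatin that were bound by RUVBL2 at the ends of long non-coding RNA (lncRNA) genes. They come from chromatin immunoprecipitation with sequencing (ChIP-seq) of the hypothalamus of wild-type male C57BL/J mice aged 8 weeks, with an antibody against RUVBL2. The series holds 2 RUVBL2 ChIP libraries and 2 input libraries, all of the same tissue, genotype, sex and age, with no treatment named. The labels do not say whether replicates 1 and 2 came from separate animals or pools, so the spread between them may be technical. A shared region was the joined interval of peaks from both deposited lists that overlapped by at least 1 bp, and a shared region was a member when its midpoint lay within 500 bp of either end of a gene annotated as lncRNA. A further 14 shared regions at lncRNA ends lay within 1 kb of ends of 2 or more protein-coding genes and were left out. Of 3111 shared regions, 318 (10.2%) were members. Of these, 230 lay beside a protein-coding gene, meaning that an end of 1 such gene was within 1 kb of the midpoint, and 88 had no protein-coding gene end that close and are called solitary.

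RUVBL2 is an AAA+ ATPase that joins RUVBL1 in ring-shaped assemblies, which are built into the INO80, SRCAP and TIP60 chromatin remodelling complexes and into chaperone complexes. lncRNAs are transcripts without a long open reading frame. Many start next to a protein-coding gene and run away from it on the opposite strand, so that both genes share a stretch of promoter that is often rich in CpG dinucleotides. Others have promoters of their own, and some carry small nucleolar RNAs (snoRNAs, which guide chemical marking of ribosomal RNA) or microRNAs in their introns.

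The promoters of 8 lncRNAs show what lay inside these regions. Each is the sense strand of the lncRNA from RefSeq (GRCm38.p6), 250 bases before to 50 bases after the listed start. Capitals mark matches, on either strand, to the CCAAT box (CCAAT), the GC box (GGGCGG), the core of the YY1 motif (ATGGCGG) or a TATA motif (TATAAA), letter matches only. The set is Snhg11, a neuron-rich snoRNA host, Chaserr, which represses its neighbour Chd2, Oip5os1 (Cyrano), which promotes decay of the microRNA miR-7, both microRNA hosts with mature sequences below, Gm13483, the best-ranked solitary region, and 2900009J06Rik and Gm16196, which start opposite Ccnt2 and Srsf3. All 300 bases lay inside the region except in A330023F24Rik, where 222 did.
Snhg11 (chr2:158375463-158375762, + strand): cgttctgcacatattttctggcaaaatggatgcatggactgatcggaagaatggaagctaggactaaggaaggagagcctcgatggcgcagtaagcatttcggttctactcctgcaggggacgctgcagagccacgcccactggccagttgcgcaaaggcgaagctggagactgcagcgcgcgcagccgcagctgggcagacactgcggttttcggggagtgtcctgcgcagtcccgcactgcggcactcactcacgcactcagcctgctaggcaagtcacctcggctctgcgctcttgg
Chaserr (chr7:73558346-73558645, - strand): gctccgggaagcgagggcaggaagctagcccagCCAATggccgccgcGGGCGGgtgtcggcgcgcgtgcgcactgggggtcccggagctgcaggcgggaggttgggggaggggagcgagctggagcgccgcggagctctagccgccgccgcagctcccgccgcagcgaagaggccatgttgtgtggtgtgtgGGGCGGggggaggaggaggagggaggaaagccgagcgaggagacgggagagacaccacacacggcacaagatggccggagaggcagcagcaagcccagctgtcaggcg
Oip5os1 (chr2:119594046-119594345, + strand): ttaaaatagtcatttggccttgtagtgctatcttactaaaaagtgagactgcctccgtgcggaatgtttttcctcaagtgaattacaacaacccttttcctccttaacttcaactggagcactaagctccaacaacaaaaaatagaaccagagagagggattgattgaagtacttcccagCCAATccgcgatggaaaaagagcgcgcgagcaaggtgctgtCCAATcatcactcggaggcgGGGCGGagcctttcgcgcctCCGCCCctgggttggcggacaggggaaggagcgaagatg
E130102H24Rik (chr4:101356199-101356498, - strand): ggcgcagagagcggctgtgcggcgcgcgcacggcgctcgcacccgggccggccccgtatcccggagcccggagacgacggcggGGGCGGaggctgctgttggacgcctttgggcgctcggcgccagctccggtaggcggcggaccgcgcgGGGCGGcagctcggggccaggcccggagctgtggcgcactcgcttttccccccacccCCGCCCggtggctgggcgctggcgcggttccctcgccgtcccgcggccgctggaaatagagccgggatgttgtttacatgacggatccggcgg
A330023F24Rik (chr1:195017149-195017448, + strand): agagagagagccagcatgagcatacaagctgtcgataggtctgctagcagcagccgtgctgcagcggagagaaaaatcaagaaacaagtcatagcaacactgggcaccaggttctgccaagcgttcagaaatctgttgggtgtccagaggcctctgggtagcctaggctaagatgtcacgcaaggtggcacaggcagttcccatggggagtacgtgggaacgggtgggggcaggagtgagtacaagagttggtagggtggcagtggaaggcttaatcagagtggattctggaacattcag
Gm13483 (chr2:50296560-50296859, + strand): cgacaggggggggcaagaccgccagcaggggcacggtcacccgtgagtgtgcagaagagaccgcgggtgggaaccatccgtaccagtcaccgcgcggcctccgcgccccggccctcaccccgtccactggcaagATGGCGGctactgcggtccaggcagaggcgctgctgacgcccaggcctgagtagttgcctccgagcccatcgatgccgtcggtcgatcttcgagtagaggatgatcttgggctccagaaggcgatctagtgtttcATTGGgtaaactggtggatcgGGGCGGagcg
2900009J06Rik (chr1:127774005-127774304, - strand): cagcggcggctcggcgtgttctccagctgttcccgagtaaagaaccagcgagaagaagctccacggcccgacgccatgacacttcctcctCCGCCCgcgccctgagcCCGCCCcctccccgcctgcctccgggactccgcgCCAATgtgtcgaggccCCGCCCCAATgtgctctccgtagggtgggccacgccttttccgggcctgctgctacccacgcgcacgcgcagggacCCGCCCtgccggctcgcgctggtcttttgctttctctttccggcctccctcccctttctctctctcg
Gm16196 (chr17:29032574-29032873, - strand): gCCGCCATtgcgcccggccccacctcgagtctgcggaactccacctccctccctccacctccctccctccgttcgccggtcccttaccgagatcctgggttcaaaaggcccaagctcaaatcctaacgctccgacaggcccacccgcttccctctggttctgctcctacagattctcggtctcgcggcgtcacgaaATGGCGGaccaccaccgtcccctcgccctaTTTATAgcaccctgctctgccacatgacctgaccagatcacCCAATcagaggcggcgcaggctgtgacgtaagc

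The 8 sequences ranged widely in composition. E130102H24Rik was 76.7% G or C with 47 CpG dinucleotides, Chaserr 72.3% with 30 and 2900009J06Rik 69.0% with 32. Oip5os1 was 50% G or C with 15 CpG dinucleotides, and A330023F24Rik 54.0% with 7. The promoter of 2900009J06Rik held 6 matches, 1 CCAAT box overlapping a GC box, whereas none of the motifs searched occurred in the windows of Snhg11 and A330023F24Rik. Gm13483 held 1 match each to the CCAAT box, the GC box and the YY1 core. Gm16196 held 4, of which 1 was to the CCAAT box, 1 to the TATA motif and 2 to the YY1 core.

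The member regions were short and rested on few reads. Their median width was 739 bp, against 713 bp for the other 2793 shared regions, and the full range was 321 to 2938 bp. The median number of reads piled up at the summit, recovered from the deposited values, was 17 in replicate 1 and 26 in replicate 2 for members, against 17 and 25 for the other shared regions. Fold enrichment here is the authors' value at the summit of the peak over the background estimated by their peak caller, with a pseudocount of 1 added to both. Intervals on folds are exact Poisson 95% intervals of the summit reads and those on shares are exact Clopper-Pearson 95% intervals. These intervals reflect counting alone, and the reads had been amplified with no molecular identifiers to count single molecules by.

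Members were enriched to about the same degree as shared regions elsewhere. Their median fold was 5.21 in replicate 1 and 5.23 in replicate 2, against 5.04 and 5.37 for the other shared regions. On the log2 scale the difference of the medians was 0.05 in replicate 1 and -0.04 in replicate 2, of opposite sign, with a mean of 0.01 and an SD of 0.06 (n = 2). Solitary members had medians of 5.24 and 5.23, and members beside a coding gene 5.12 and 5.24. The 1799 shared regions at an end of 1 protein-coding gene with no lncRNA end had medians of 5.02 and 5.41. The fold was higher in replicate 2 than in replicate 1 in 174 of 318 members (54.7%), against 1595 of 2793 other shared regions (57.1%). Member folds reached from 2.90 up to 12.6 in replicate 1, and from 2.46 up to 19.2 in replicate 2.

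**Figure D1:**
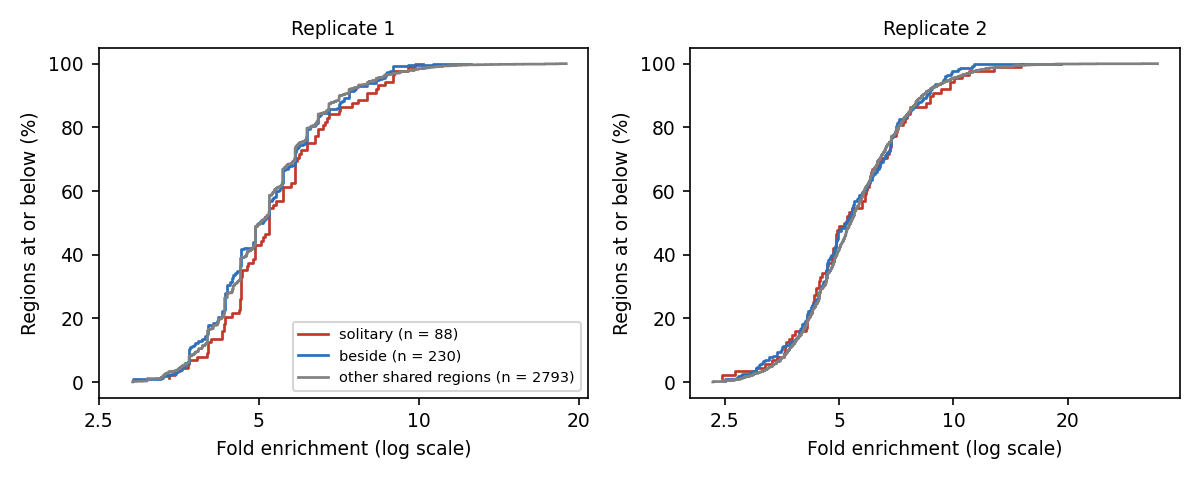
Cumulative share of regions (vertical axis, %) at or below each authors' fold enrichment (horizontal axis, log scale) in replicate 1 and replicate 2, for 88 solitary members, 230 members beside a coding gene and 2793 other shared regions. The curves run close together in both replicates, with medians between 5.04 and 5.37.

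The strongest peaks of the lists were present among members at a share close to that of all shared regions. Ranked by the worse of their ranks by −log10 p in the lists, 4 members (1.26%) were in the first 100, against 1.64% of all shared regions. In the first 1000 there were 63 members (19.8%, interval 15.6 to 24.6), against 17.2% of all shared regions. Peaks at lncRNA ends were also found in the other replicate about as often as any peak. In replicate 1, 328 of 406 such peaks (80.8%) overlapped a peak of replicate 2, against 80.1% of all its peaks. In replicate 2, which had the longer list, the shares were 318 of 634 (50.2%) and 48.8%.

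Few annotated lncRNAs carried a region. The 318 members were nearest to 318 different lncRNA genes, and since 4 members lay at ends of a further lncRNA, 322 of 12639 lncRNA genes (2.55%, interval 2.28 to 2.84) had a member at an end. Among 21779 protein-coding genes, 2660 (12.2%, interval 11.8 to 12.7) had a shared region within the same distance. The coding count used all 3111 shared regions, including those at ends of 2 or more coding genes, which the lncRNA count left out. Counted in the same unlike ways, the order was the same in each list alone. Replicate 1 had 3.22% of lncRNA genes and 14.8% of protein-coding genes, and replicate 2 had 5.04% and 23.5%. Of lncRNA genes with a curated RefSeq transcript, 193 of 3318 (5.82%) had a member, and of those with predicted transcripts only, 129 of 9321 (1.38%). Genes that still bear only a Gm number had 169 of 10117 (1.67%), Riken clones 115 of 1785 (6.44%) and genes named as opposite-strand transcripts 16 of 211 (7.58%, interval 4.40 to 12). Genes under a LOC number had 7 of 237 (2.95%), and those with any other name outside the Snhg group 11 of 271 (4.06%). The X chromosome held 1 member, at Gm14634 beside the Mediator subunit gene Med14, where 15 of the 3111 shared regions and 285 of the lncRNA genes lay.

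Nearly all member regions with a known orientation lay at the lncRNA's start. The RefSeq promoter table gave the strand of the nearest lncRNA for 270 of the 318 members, of which 264 lay at the start of the gene and 6 at the other end. The 6 were Gm30110, Gm46722, 4930526I15Rik, 1700122E12Rik, Gm52505 and Gm19582, named after their values were seen, with folds from 4.01 up to 5.32 for replicate 1 and from 4.43 up to 6.48 for replicate 2. The median distance from midpoint to lncRNA end was 194 bp, and 88 midpoints lay within 100 bp of it and 205 within 250 bp.

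The median midpoint was downstream of the start for solitary members and upstream for those beside a coding gene, though the median solitary summit of replicate 1 was upstream. In the direction of lncRNA transcription, the median midpoint of 74 solitary members was at +38.5 bp (quartiles -177.5 and 175.5), with 41 downstream of the start and 33 upstream. For 190 members beside a coding gene the median was -106 bp (quartiles -239.5 and 73), with 66 downstream and 123 upstream. Summits showed the same order. Their medians were at -8.5 and 24 bp in solitary members and at -100.5 and -82 bp in members beside a coding gene, in replicates 1 and 2. No test was run on this difference. Each start here was the nearest of the lncRNA's listed transcript starts, with the gene's own start among them.

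**Figure D2:**
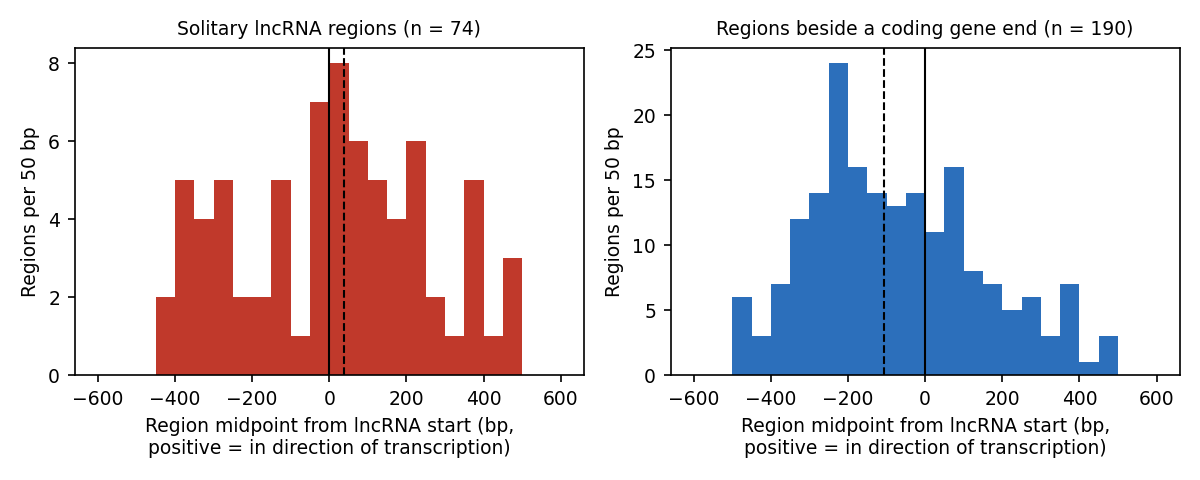
Number of regions per 50 bp (vertical axis) by position of the midpoint from the lncRNA start in bp (horizontal axis, positive in the direction of transcription), for 74 solitary members on the left and 190 members beside a coding gene on the right. Solid lines mark the start and dashed lines the medians, +38.5 bp on the left and -106 bp on the right, where most midpoints lie upstream. Starts are the nearest listed ones.

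By count, lncRNA starts beside a coding gene end carried a member more often than starts with no such end within 1 kb. Starts with no coding end could still lie at an inner coding start. Of the 88 solitary regions, 40 had a listed coding transcript start within 1 kb. Of 1224 lncRNA starts with an end of 1 protein-coding gene within 1 kb, 192 (15.7%, interval 13.7 to 17.8) had a member, against 74 of 8259 starts with none (0.896%, interval 0.704 to 1.12). Replicate 1 alone gave 19.2% and 1.05%, and replicate 2 alone 29.7% and 1.68%. At the other ends of lncRNA genes a member lay at 5 of 418 (1.2%) beside a coding gene and at 2 of 9085 (0.022%) with no coding end. Where the strand of the lncRNA was not listed, a member lay at 35 of 502 ends beside a coding gene (6.97%) and at 14 of 5698 with none (0.246%). Ends near 2 or more coding genes, which the rule leaves out by the midpoint, had 1 of 50 starts (2%), 0 of 30 other ends (0%, interval up to 11.6) and 0 of 12 unoriented ends (0%, interval up to 26.5). Seen from the coding side, 112 of 627 coding starts with an opposite-strand lncRNA start within 1 kb upstream had a shared region (17.9%, interval 14.9 to 21.1), against 2055 of 16865 without one (12.2%, interval 11.7 to 12.7).

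Base composition moved with this divide. A start was called CpG-rich when its 300-base RefSeq promoter was over 50% G or C and its ratio of observed to expected CpG was over 0.6. Counting the nearest lncRNA of each region, 184 of 724 CpG-rich starts beside a coding gene (25.4%) and 55 of 456 CpG-rich starts with no coding end (12.1%, interval 9.22 to 15.4) had a member. Among starts that were not CpG-rich the counts were 8 of 500 (1.6%) and 16 of 7803 (0.205%). CpG-rich starts were 79.7% of the solitary members' starts, against 4.90% of other lncRNA starts without a coding end. They were 94.7% of the starts of members beside a coding gene, against 52.3% of other lncRNA starts beside one. The part that composition plays in the counts was not tested.

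**Figure D3:**
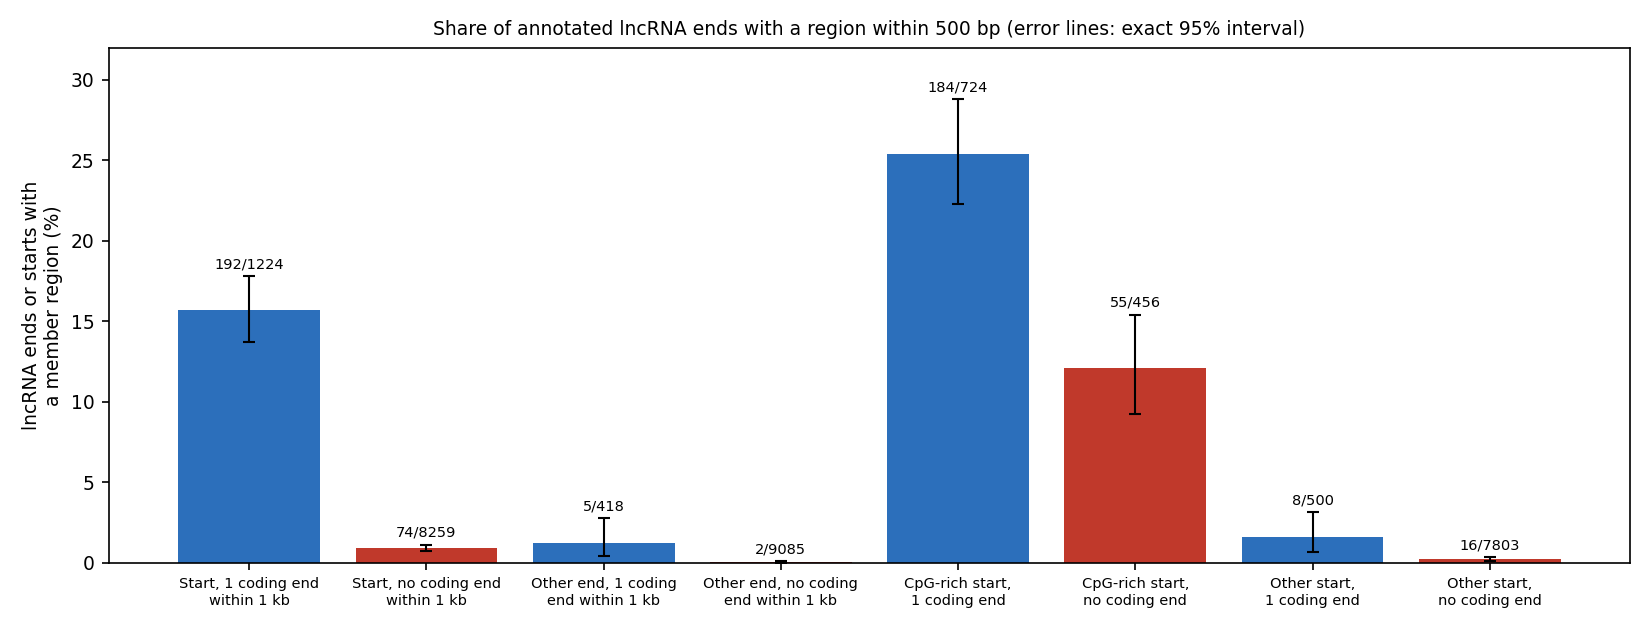
Share (vertical axis, %) of lncRNA gene ends, in the 4 bars on the left, and of lncRNA starts by CpG content, in the 4 bars on the right, that had a member within 500 bp. Blue bars have an end of 1 coding gene within 1 kb and red bars have none, error lines are exact 95% intervals and counts stand above them. Among the bars on the right, CpG-rich starts stand at 25.4% beside a coding gene and 12.1% without one, against 1.6% and 0.205% of starts that were not CpG-rich.

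By their medians, the promoters of members were richer in G and C than those of other lncRNAs. The median G or C content was 66.8% with 27.5 CpG dinucleotides over 74 solitary members, against 47.3% and 3 over 8188 other lncRNA starts without a coding end. It was 70.0% with 32 over 190 members beside a coding gene, against 60.0% and 17 over 1032 other lncRNA starts beside one. Coding starts with a shared region had 63.7% and 26. The GC box was present in 63.5% of solitary members and 76.3% of members beside a coding gene, against 35.9% of all 27025 promoters in the table. The motif of ETS factors (CCGGAAG) was in 6.76% and 23.7%, against 9.14% of all promoters. The CCAAT box was in 18.9% and 25.8%, against 38.0%, and the TATA motif in 4.05% and 2.11%, against 14.2%. The YY1 core was in 8.11% and 14.7%, against 4.21%, and the E-box (CACGTG) in 10.8% and 6.84%, against 7.24%. In that order of motifs, other lncRNA starts without a coding end had 10.4%, 2.99%, 36.4%, 17.2%, 1.28% and 5.64%. Other lncRNA starts beside a coding gene had 51.6%, 8.24%, 35.8%, 7.07%, 4.07% and 7.95%. For coding starts with a shared region the shares were 71.8%, 24.6%, 32.6%, 4.34%, 16.4% and 10.9%. These are letter matches on either strand in promoters of unequal composition, with no test.

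Most members beside a coding gene marked head-to-head pairs. In 164 of the 230, both genes started near the region on opposite strands. In 10 both started on the same strand, in 3 the end was not the lncRNA's start, and in 53 the strand of a gene was not listed. For these distances each gene's start was the nearest of its listed transcript starts, with the gene's own start among them. The head-to-head starts were a median of 121.5 bp apart (quartiles 45.5 and 270.75, greatest 942), and 131 of the 164 pairs lay within 300 bp. The lncRNA start was upstream of the coding start in 109 pairs and at or inside the coding gene in 55.

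Over all 164 pairs the midpoint was nearer the coding start in 105 and nearer the lncRNA start in 58. A gene with more listed starts had more chances to be the nearer one, which was not corrected for. In the 109 pairs with the lncRNA start upstream, 82 midpoints were nearer the coding start and 27 nearer the lncRNA start. In the 55 with the lncRNA start at or inside the coding gene, the counts were 23 and 31. By summits the counts over all pairs were 98 and 65 in replicate 1, and 104 and 59 in replicate 2. In the 55 pairs they were 23 and 31 in replicate 1, and 26 and 28 in replicate 2. Over all pairs the median midpoint lay 58 bp downstream of the coding start and 126 bp upstream of the lncRNA start. In 1446 of 1456 oriented coding-gene regions with no lncRNA end the region was likewise at the coding start, with a median midpoint at +114.5 bp over the 1456.

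**Figure D4:**
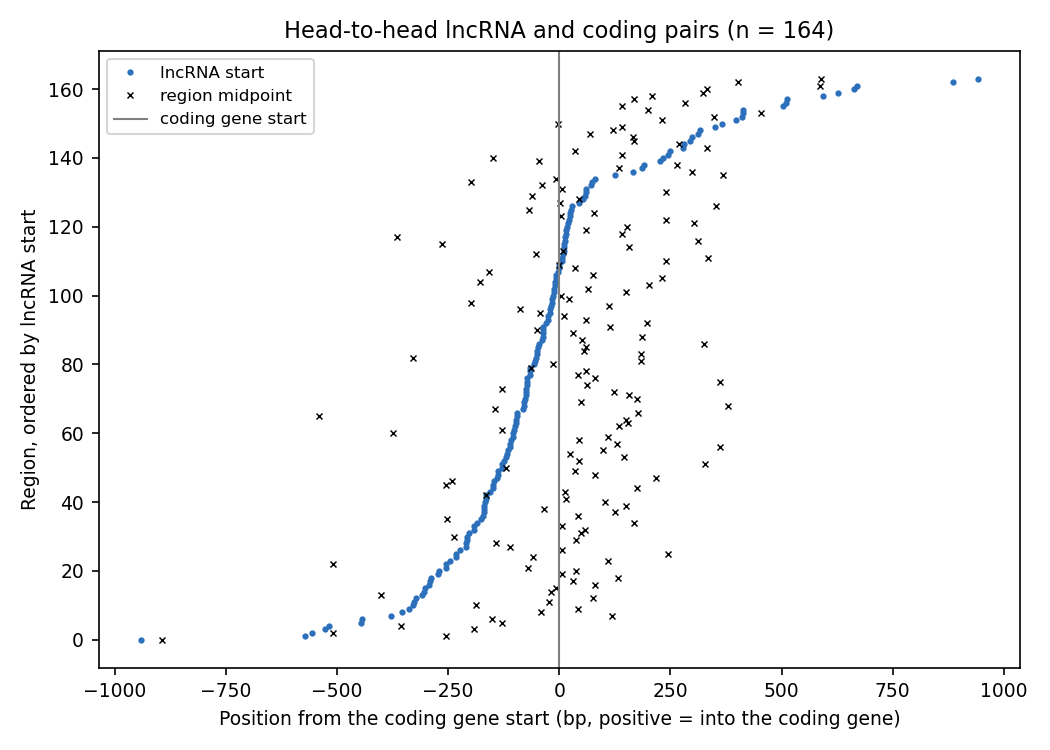
Each of 164 head-to-head pairs on a line of its own (vertical axis, ordered by the lncRNA start), with position from the coding gene start in bp (horizontal axis, positive into the coding gene). Blue dots are lncRNA starts and crosses are region midpoints, which spread on both sides of the grey coding start with a median of +58 bp. Starts are the nearest listed ones.

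The best-ranked coding-side region joined 1700008J07Rik and Srcap, the gene of the ATPase that exchanges histone H2A.Z in a complex that holds RUVBL2. The replicate 1 fold was 12.6 (interval 9.45 to 16.4) and the replicate 2 fold 19.2 (15.1 to 24.04), at chr7:127511852-127512919. This was the highest member fold in both replicates. The lncRNA start lay 886 bp inside Srcap, and the midpoint was 402 bp from the Srcap end and 484 bp from that of the lncRNA, close to the limit of the window. The summits lay nearer Srcap, 239 and 151 bp inside it in replicates 1 and 2. They were 647 and 735 bp from the lncRNA start, outside the window that the midpoint met.

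The 15 best-ranked regions beside a coding gene had partners of many kinds. Gm16196 starts 37 bp upstream of Srsf3, which encodes a splicing factor, and the region at chr17:29032126-29033254 had folds of 7.38 and 9.93. Gm52054 lies head to head with the splicing regulator gene Srek1 at folds of 7.25 and 8.05, and Gm35602 with the RNA-binding protein gene Rbm33 at 7.40 and 10.3. 4921531C22Rik starts 207 bp upstream of Taf4, a subunit of the general transcription factor TFIID, with folds of 7.71 and 9.60. A230045G11Rik lies beside Scaf8, whose protein binds the tail of RNA polymerase II, with folds of 8.83 and 9.88. Gm15927 lies beside Cnot3, of the CCR4-NOT deadenylase, with folds of 7.12 and 11.3.

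Genes of the elongation kinase P-TEFb were among the partners. Gm33457 starts 526 bp upstream of Cdk9, its kinase subunit, and the region had folds of 7.09 and 8.46. The cyclin genes Ccnt2 and Ccnt1 were looked up after the values were seen. No share of such genes was counted among members or other regions, so these are single cases. 2900009J06Rik, whose promoter is printed above, starts 110 bp upstream of Ccnt2, at folds of 10.6 and 7.20. 9330020H09Rik starts 412 bp inside Ccnt1, at 6.16 and 4.14.

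Gm42085 starts 146 bp upstream of Cltc, the clathrin heavy chain gene, at folds of 9.56 and 9.89. The kinase genes were Mark3 with 2810029C07Rik (8.94 and 11.3), Mapk6 with 4933433G15Rik (8.94 and 11.2) and Csnk1d, a clock kinase, with LOC115486436 (8.44 and 9.34). Gpr19, an orphan receptor gene, lay with 2810454H06Rik at 8.73 and 8.86, and the mannosidase gene Man2c1 with Man2c1os at 8.68 and 8.69. 3110056K07Rik and Arid4a, whose protein works with histone deacetylases, had 8.63 and 6.22. Across these 15 regions the fold was at least 6.22 in both replicates.

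Partners were also grouped by symbol stems, which miss genes of the same function under other symbols, so the counts are of symbols and not of functions. Srek1, a splicing regulator, Cnot3, and Ezh2 and Mcrs1, which act on chromatin, fall outside the stems; the last 2 and Cycs below were named after their values were seen. Symbols of the chromatin list were partners of 8 of the 230 members (3.48%, against 1.78% of the 1799 coding-only regions). These were Srcap, Arid4a, Setd5, Kmt2c, Chd1, Ep400, Kat7 and Ino80d, with medians of 5.86 and 5.13. Ep400 and Ino80d encode subunits of the TIP60 and INO80 complexes, which contain RUVBL2, and their regions had folds of 5.55 and 3.14 (with Gm15559) and of 6.78 and 3.04 (with Ino80dos). Setd5 shares its region with the Rosa26 transcript Gt(ROSA)26Sor, the locus used to insert transgenes, at 6.17 and 8.47. Symbols of the RNA-processing list numbered 10 (4.35%, against 2.39%), of the zinc-finger list 6 (2.61%, against 3.39%), of the ubiquitin list 8 (3.48%, against 4.11%) and of the ribosome and translation list 5 (2.17%, against 3.45%). No partner had a symbol of the respiration list (Nduf, Cox, Uqcr, Atp5 and Sdh genes), against 25 of the coding-only regions (1.39%). By a rough limit of 3 counts in 230, a count of 0 allows a share of such symbols of up to 1.304%. That limit is not an exact interval and does not set the members apart from the coding-only regions. Cycs, the gene of the electron carrier cytochrome c, falls outside those symbols and was a partner, of 5430402O13Rik, with folds of 5.24 and 6.20. These shares were not tested.

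Solitary regions were solitary only by the ends of coding genes. Of the 88, 34 had a coding end at 1 to 3 kb, 18 at 3 to 10 kb and 36 beyond 10 kb. Inside the span of a coding gene lay 57, and 40 regions (45.5%) had a listed coding transcript start within 1 kb, that is an inner or alternative promoter. The promoter table does not list every coding gene, so 40 is a minimum. The remaining 31 (35.2%) lay outside every coding span, with median folds of 5.39 and 5.75. The 40 with a listed start had 5.28 and 4.86, and the 17 inside a span without one 4.92 and 5.15.

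Gm13483 ranked best among solitary regions, at chr2:50296237-50296864 within the span of Mmadhc, a gene of cobalamin metabolism, and 2471 bp from its nearest end. Mmadhc had no listed start, so an inner start of it at this region could not be looked for. The replicate 1 fold was 8.37 (interval 5.96 to 11.5) and the replicate 2 fold 15.3 (11.7 to 19.7), and these intervals did not overlap. 1700012D14Rik, 39486 bp from Eif4g2, also had intervals that did not overlap, with 6.66 (4.54 to 9.47) and 15.0 (11.4 to 19.5). In the other 18 of the 20 best-ranked solitary regions the intervals of the replicates overlapped.

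**Figure D5:**
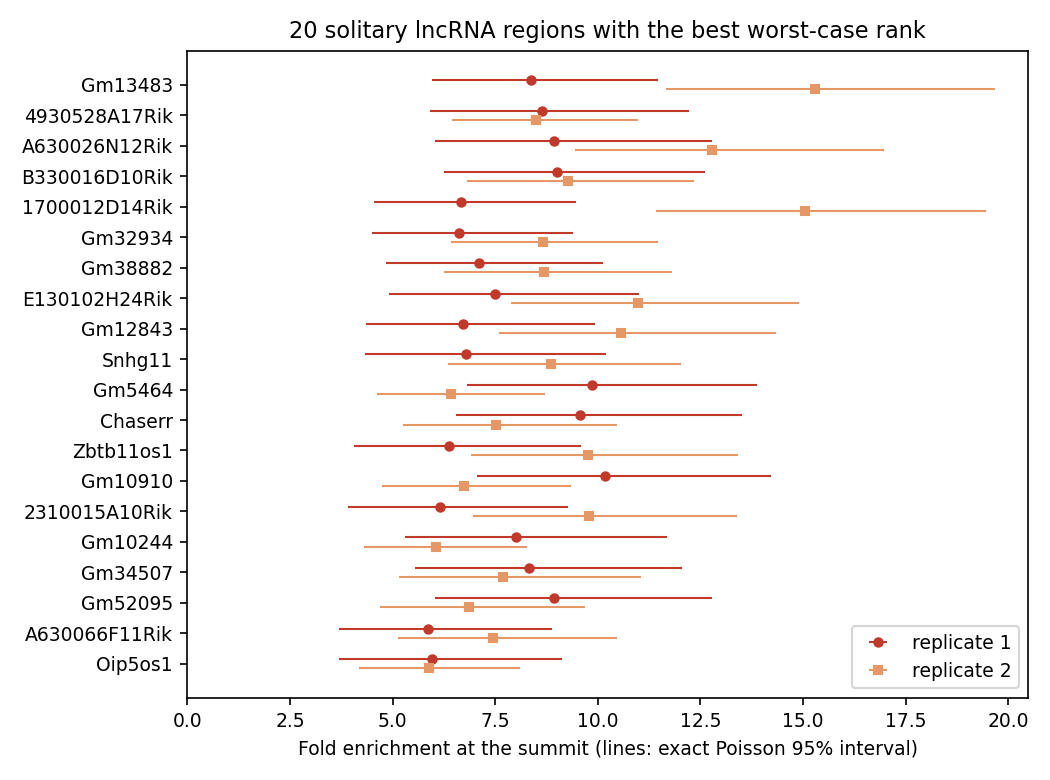
Authors' fold enrichment at the summit (horizontal axis) for the 20 best-ranked solitary members (vertical axis, best at the top), with circles for replicate 1, squares for replicate 2 and lines for exact Poisson 95% intervals. The intervals of the replicates overlap except in Gm13483 and 1700012D14Rik, where replicate 2 is higher.

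Several of the 20 sat at inner starts of coding genes. A630026N12Rik had folds of 8.94 and 12.8 and lay 4 bp from a listed start of Gabpb1, which encodes a partner of an ETS factor. Gm32934 (6.61 and 8.68, in Cipc), Zbtb11os1 (6.37 and 9.76, in Zbtb11), Gm10910 (10.2 and 6.75, in Prdm10), Gm10244 (8.01 and 6.05, in Mkrn1), Gm52095 (8.94 and 6.86, in Tasor) and A630066F11Rik (5.85 and 7.44, in Pcmt1) lay within 478 bp of a listed coding start. 4930528A17Rik (8.64 and 8.48, in Pnisr), Gm12843 (6.72 and 10.6, in Rnf220) and Gm5464 (9.86 and 6.42, in Dpysl2) lay in a coding span with no listed start so close. Pnisr had no listed start at all, and the nearest one listed to Gm5464 was 2.64e+06 bp away. An inner start of Pnisr or Dpysl2 could therefore not be looked for. Rnf220 was listed, and the nearest listed coding start to Gm12843 was 37085 bp away.

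The others of the 20 stood outside every coding span. Snhg11, which is enriched in neurons, had its midpoint 1 bp from the lncRNA end, at chr2:158375361-158376064 and 34118 bp from the nearest coding end, with folds of 6.78 (4.32 to 10.2) and 8.85 (6.36 to 12.02). Chaserr, at chr7:73557792-73558964, lay 17 bp from its end and 16632 bp from that of Chd2, a chromatin remodeller gene, with 9.56 (6.55 to 13.5) and 7.52 (5.25 to 10.5). Oip5os1, at chr2:119594037-119594907, had 5.95 (3.70 to 9.13) and 5.89 (4.17 to 8.10). Less studied transcripts were B330016D10Rik (9.01 and 9.28), Gm38882 (7.12 and 8.69), 2310015A10Rik (6.16 and 9.79) and Gm34507 (8.32 and 7.68), the last 85870 bp from Arid1b.

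Genes for lncRNAs with a snoRNA gene inside had a member more often by count than those without. A small RNA gene counted as inside by its position within the lncRNA span, with strand and introns not checked. Of 108 lncRNA genes with a snoRNA gene inside, 12 had a member (11.1%, interval 5.87 to 18.6), against 310 of 12531 without (2.47%, interval 2.21 to 2.76). Within curated genes the counts were 9 of 52 (17.3%, interval 8.23 to 30.3) and 184 of 3266 (5.63%, interval 4.87 to 6.48). Of 18 genes with an Snhg symbol, 4 had a member (22.2%, interval 6.41 to 47.6). In the list of 22 snoRNA hosts, which includes the Snhg genes among others, 7 had a member, namely Snhg11, Snhg12, Snhg17, Snhg6, Zfas1, Dancr and Epb41l4aos.

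Among these hosts Snhg11 had the highest folds in both replicates. Dancr, which holds Snora26, had 6.40 and 7.35, and Snhg17, a neighbour of Snhg11 on chromosome 2, had 4.62 and 5.75. Snhg12 had 4.01 and 6.69 and Epb41l4aos 5.06 and 4.80. Zfas1, which starts 81 bp inside Znfx1, had 6.53 and 3.61, and Snhg6, beside Mcmdc2, had 5.79 and 4.65. 2410006H16Rik, which holds Snord49a, Snord49b and Snord65, was named after its values were seen, at 5.10 and 7.14. Its region lay within 1 kb of ends of Snord49a and Snord49b.

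The remaining snoRNA hosts were not members, but several had a peak in a single list. In replicate 2 alone a peak midpoint lay 353 bp from Snhg1 (fold 3.92), 6 bp from Snhg5 (3.54), 145 bp from Snhg8 (5.24) and 97 bp from Snhg15 (5.74). In replicate 1 alone it lay 80 bp from Snhg9 (3.70). Gas5 had a peak of replicate 2 at 533 bp (3.21), outside the window.

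Few members had a microRNA gene inside the lncRNA, again by position alone. Of 110 lncRNA genes with a microRNA gene inside, 5 had a member (4.55%, interval 1.49 to 10.3), against 317 of 12529 without (2.53%), and none of the 18 genes listed as microRNA hosts by name did. With no member in 18 genes, a share of up to 16.7% is allowed by the limit of 3 counts. Mir22hg had a shared region just outside the window, at 516 bp (4.62 and 3.60). Mir124a-1hg had a peak in replicate 2 alone at 429 bp (4.39). E130102H24Rik, the host of Mir101a, had 7.49 and 10.97 at chr4:101355856-101357246, far from any coding end (59927 bp from Ak4). A330023F24Rik, which hosts Mir29b-2 and Mir29c, had 4.27 and 4.83 at chr1:195016893-195017370. The mature RNAs follow from RefSeq, with the seed (bases 2 to 8) in capitals, and the 2 members of the miR-29 family share their seed.
miR-101a-3p: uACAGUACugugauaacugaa
miR-29b-3p: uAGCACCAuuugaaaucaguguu
miR-29c-3p: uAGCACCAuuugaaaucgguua

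Well-known nuclear and imprinted lncRNAs were mostly outside the set, as were lncRNA genes at large, of which 322 of 12639 (2.55%) had a member. The lists below are too short to be set apart from that share. Of the 8 abundant nuclear lncRNAs listed, Oip5os1 was a member, and of the 8 imprinted genes in the table, Peg13, which is expressed from the paternal copy inside Trappc9, was a member with folds of 4.92 and 4.93. None of 6 developmental brain lncRNAs had one, which by the limit of 3 counts allows a share of up to 50%. Nor did any of 3 X inactivation lncRNAs, too few to set a limit. Of 4 lncRNAs listed as neuronal markers, Snhg11 was a member, and H19, listed for non-neural cells, was not.

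Malat1, abundant in nuclear speckles, had strong peaks in both lists just outside the window, at 613 bp in replicate 1 (fold 8.06) and 644 bp in replicate 2 (11.7). Neat1, the scaffold of paraspeckles, had a peak in replicate 2 alone at 426 bp (4.23), and Tug1 in replicate 2 alone at 210 bp (6.62). Meg3, a maternally expressed transcript, had a peak in replicate 1 alone at 234 bp (3.70). Miat, enriched in neurons, had peaks at 825 bp in replicate 1 (3.70) and 135 bp in replicate 2 (3.03). The nearest peak of either list was 27936 bp away for Norad, 103751 bp for Xist and 160088 bp for Kcnq1ot1.

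Regions lay on both sides of the 500 bp limit. The members nearest to it were 1700008J07Rik at 484 bp, Gm52505 at 485 bp (5.32 and 4.43), and Gm30451 (7.25 and 5.78) and 5830433I10Rik (4.48 and 4.14) at 496 bp. Just outside were B130055M24Rik at 502 bp (3.91 and 4.47), Gm36315 at 506 bp (3.34 and 4.39), Gm52500 at 508 bp (4.62 and 5.15) and Gm36331 at 512 bp (4.93 and 4.03).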

How the data were processed

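RUVBL2 ChIP-seq and input libraries of mouse hypothalamus came from tissue fixed in 1% formaldehyde and were sequenced as paired 150 bp reads after 15 cycles of amplification, per the labels' protocols. Per the submitters' processing notes, the tools were MACS2 2.1.0, Bowtie2 2.3.4.1, Trimmomatic 0.33, bcl2fastq 2.17 and ChIPseeker, on the build GRCm38; no source used here gives their settings. The deposited lists (3943 peaks in replicate 1, 6403 in replicate 2, called per library) give the authors' fold enrichment, −log10 p and −log10 q at each summit, and a score that is 10 times the −log10 q, which was not used. The lowest deposited −log10 q was 1.32 and 1.34. Input libraries entered no value of their own. The sample titled Hyp2 has peaks named Hyp3, and its GEO record was followed.

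Library depth is not stated in any source used here. Summit pileups, solved from fold and −log10 p, stood in for it. A whole number matched 100% of members within a relative tolerance of 0.0001, with medians over all peaks of 16 and 22 reads. The step was also tested on simulated data.

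Genes came from a RefSeq table of GRCm38.p6 with 49603 rows used. Another 340 rows, placed in the gap at chromosome starts (the first 3 Mb), were left out. It gives neither strand nor exons, so exons, introns and UTRs were not assigned. Strand and promoter sequence came from a RefSeq promoter table, in which 9533 of 12639 lncRNA genes matched. The listed start equalled an end of the gene in 19827 of its 27025 entries. The motifs spelled out in the text were searched on both strands. Base composition of whole regions was not computed, because no genome sequence was used here. Analyses used Python 3.11.15, pandas 2.3.3, numpy 2.4.6 and scipy 1.17.1.

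Named genes were the 20 solitary and 15 coding-side members with the best worst-case rank, every member in a fixed lncRNA list and 10 genes of interest, with others marked in the text. The members, lists and rules were chosen with earlier results of these data known. Comparisons are counts, medians and exact intervals, with no significance test.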

Additional observations from a re-analysis of the deposited data

How the results depend on the processing

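Of 59 values under alternative settings, 34 stayed within the limits set for a count or a value and 25 moved. With a window of 250 bp there were 205 members, 53 solitary and 152 beside a coding gene, 1.63% of lncRNA genes and a median distance of 119 bp. A window of 1000 bp gave 3.37% and 256.5 bp. Requiring a −log10 q of at least 5 in both peaks left 153 members, 46 solitary and 107 beside a coding gene, 1.23% of genes, a median width of 844 bp and a distance of 196 bp. An overlap of at least 50% of the shorter peak gave a distance of 186 bp. Counting a coding end within 3 kb left 54 solitary members. Counting listed inner coding starts as well, chosen after seeing the data, left 48.

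Leaving out a replicate, which uses the other list alone, gave 406 to 634 members, 106 to 174 solitary, 300 to 460 beside a coding gene, 3.22% to 5.04% of lncRNA genes, widths of 446.5 to 532 bp and distances of 205.5 to 207 bp. The difference in median log2 fold stayed between -0.04 and 0.05 under all its settings.

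No paired analysis was possible because the input libraries entered no value of their own and no test was made. Base composition of whole regions was not computed, nor its setting of 300 bp around the midpoint. With medians of 17 and 26 reads at a summit, folds of single regions are imprecise, and the absence of a peak from a list does not show that binding was absent.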
